A study of Mus musculus with 6 samples.

Results

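Calcium-binding proteins of the EF-hand superfamily buffer calcium inside neurons or pass its signal on to enzymes and channels. The genes described here are 9 members chosen by name: Pvalb, Calb1, Calb2, Necab2, Calm2, Calm3, Hpca, Ncald and Vsnl1. Each matched 1 row of the 31469 rows in the deposited expression table. Transcript levels were measured by RNA sequencing in 6 libraries of mouse neurons positive for parvalbumin, from the dorsal root ganglion (DRG) at lumbar level 4, taken at postnatal day 21 from C57BL/6 animals. Of these, 3 libraries were wild type and 3 came from animals in which Dicer, the ribonuclease that releases mature microRNAs from their precursors, was deleted by Cre recombinase under the control of parvalbumin. The deletion therefore depends on expression of Pvalb, which is itself one of the 9 genes. How the cells were identified and collected, whether the wild-type animals carried Cre, and whether each library came from its own animal were not stated in the sources at hand. The p-values thus measure the spread between these libraries, part of which may be technical.

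Parvalbumin (Pvalb), calbindin (Calb1) and calretinin (Calb2) are soluble proteins that bind calcium and shape its rise and fall after a spike. In the DRG, parvalbumin is the classical marker of proprioceptors, which report muscle length and tension, and calbindin and calretinin mark other large sensory neurons as well. Calmodulin is the general calcium sensor of the cell. Calm2 and Calm3 are separate genes with the same protein product, which activates kinases, the phosphatase calcineurin and membrane calcium pumps. Hippocalcin (Hpca), neurocalcin delta (Ncald) and visinin-like 1 (Vsnl1) are neuronal calcium sensors that move to membranes when they bind calcium, and Necab2 is a neuronal EF-hand protein found near receptors and synapses.

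Since Dicer makes microRNAs, the annotated 3' UTR of each gene was searched for 7-base matches to the seeds (bases 2 to 8) of 16 microRNAs of neurons. miR-124-3p, a main microRNA of neurons, was not searched, and levels of mature microRNAs were not analysed here. The 3' UTR of Pvalb (552 bases), that of Calm2 (615 bases) and that of Necab2 (470 bases) held matches to 0 of the 16, where the median UTR of similar length (within 20%) held matches to 1. The 10th to 90th percentiles of such UTRs ran from 0 to 2, a range that includes 0. Calb2 held matches to 3 microRNAs in 546 bases, Calm3 to 4 in 1569, Ncald to 3 in 2653, Vsnl1 to 2 in 1065, Calb1 to 2 in 3301 and Hpca to 1 in 858. Medians for UTRs of similar length were 1 for Calb2 and Hpca, 2 for Calm3 and Vsnl1, 3 for Ncald and 4 for Calb1. Calb2, with 3, was above the 90th percentile for its length, which was 2. The other members lay within their 10th to 90th percentiles. The microRNAs with matches in Calb2, the called gene that has any, and in Hpca, the member with the highest log2 difference, are printed from RefSeq (GRCm38.p6), 5′ to 3′ with the seed in capitals.
miR-138-5p: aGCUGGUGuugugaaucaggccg
miR-9-5p: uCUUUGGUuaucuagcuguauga
miR-30a-5p: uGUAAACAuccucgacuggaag
miR-128-3p: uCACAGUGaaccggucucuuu

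The stretches of transcript that pair with these seeds are printed next, on the minus strand in GRCm38, with the 7 matching bases in capitals and the coordinates of those 7 bases. The miR-9-5p and miR-30a-5p matches in Calb2 overlap.
Calb2 and miR-138-5p (chr8:110142967-110142973): ccacctgcacaCACCAGCctgtggatctg
Calb2 and miR-138-5p (chr8:110142699-110142705): caggttctgccCACCAGCttgcttaatga
Calb2 and miR-30a-5p (chr8:110142584-110142590): ccctgtcttctTGTTTACcaaagaagagt
Calb2 and miR-9-5p (chr8:110142579-110142585): tcttcttgtttACCAAAGaagagtttaca
Hpca and miR-128-3p (chr4:129112307-129112313): tctggggtctgCACTGTGtgtgtgtgtgg

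A miR-138-5p match occurred in 5.7% of the 2041 3' UTRs with a length near that of Calb2, a miR-9-5p match in 5.0% and a miR-30a-5p match in 5.5%. A miR-128-3p match occurred in 14.3% of the 2541 UTRs with a length near that of Hpca. Such a match is a description of the sequence and shows neither binding nor regulation.

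A promoter of Pvalb is shown because Pvalb had the lowest log2 difference of the 9 genes and its regulatory sequence also bears on the Cre driver, beside that of Calm3, a calmodulin gene of broad expression. Both run from 250 bases before to 50 bases after an annotated start (RefSeq, GRCm38.p6, minus strand). RefSeq gives 2 promoters for Pvalb, of which the one at the outer end of the gene is printed. Capitals mark matches, on either strand, to the TATA box TATAAA, its variant TATTTAA, the GC box GGGCGG, the core AAGGTCA of the estrogen-related receptor element, and the RUNX motif TGTGGT.
Pvalb (chr15:78206351-78206650): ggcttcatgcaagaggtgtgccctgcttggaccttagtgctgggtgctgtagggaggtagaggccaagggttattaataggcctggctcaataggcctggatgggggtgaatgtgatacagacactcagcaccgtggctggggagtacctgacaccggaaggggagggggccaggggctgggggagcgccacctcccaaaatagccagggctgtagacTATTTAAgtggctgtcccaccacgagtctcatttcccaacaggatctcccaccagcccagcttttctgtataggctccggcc
Calm3 (chr7:16923983-16924282): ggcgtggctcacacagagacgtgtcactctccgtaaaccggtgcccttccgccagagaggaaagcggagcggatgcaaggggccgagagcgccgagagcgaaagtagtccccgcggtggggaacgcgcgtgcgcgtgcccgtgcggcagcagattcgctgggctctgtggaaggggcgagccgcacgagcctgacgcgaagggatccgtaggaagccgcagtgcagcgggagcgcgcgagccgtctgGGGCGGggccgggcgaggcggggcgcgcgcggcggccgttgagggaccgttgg

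The Pvalb window held 5 CpG dinucleotides and the Calm3 window 44, against a median of 7 over the first-listed promoter of each of 27025 genes. The other Pvalb promoter (chr15:78204188-78204487) held 25 CpG dinucleotides, with a GC content of 67.7% against 58.3% in the printed one, and no match to any of these motifs. TATTTAA, which was added to the search with the Pvalb sequence in view, matched 4.7% of those 27025 promoters. GGGCGG matched 35.9% of them. The other motifs had no match in either printed window.

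The deposited values are transcripts per 1000000 (TPM), a share of each library scaled by transcript length, so levels can be set side by side between genes. No sequencing depth is kept, and depth is unknown. Dicer1, the deleted gene, had 36.7, 26.0 and 48.7 TPM in wild-type and 24.0, 20.8 and 21.8 TPM in knockout libraries. Its log2 difference of -0.68 was not called (adjusted p = 0.104), and a value over the whole gene does not isolate a deleted exon. Xist and the Y-linked Ddx3y set replicate 3 of each group apart from the other 4 libraries. The summed level of 8 pan-neuronal genes was 55581 to 68278 TPM in wild type and 51084 to 53119 TPM in knockout, lower in every knockout library. Nefl, Nefm and Snap25 made up most of that sum. Of the 8 genes, 0 were called lower and 1, Rbfox3, was called higher (means of 94.9 and 131 TPM, limma adjusted p = 0.0496). All 7 measured proprioceptor markers (Pvalb, Runx3, Etv1, Ntrk3, Spp1, Esrrg and Heg1) were detected in all 6. Their summed level was 1457 to 1617 TPM in wild-type and 625 to 850 TPM in knockout libraries, and 6 of the 7 were called lower. Transcripts of nociceptors were present too (summed level of 8 markers 95.2 to 310 TPM in wild type and 163 to 210 TPM in knockout). Within that sum Tac1 was called lower (means of 33.6 and 2.43 TPM, limma adjusted p = 0.0128). Scn10a was higher in every knockout library without being called (adjusted p = 0.144). The 5 measured markers of low-threshold mechanoreceptors, Calb1 and Calb2 among them, overlapped in summed level (426 to 521 TPM in wild type and 451 to 510 TPM in knockout). That sum hides opposite changes, since Ret was called higher and Cntnap2 and Calb2 lower (limma adjusted p = 0.0433, 0.0292 and 0.0326). The sum of 6 markers of myelinating Schwann cells did not overlap (449 to 529 TPM in wild type and 1039 to 1391 TPM in knockout). Most of it was Pmp22, which was called higher, while Mbp was lower in every knockout library without being called (adjusted p = 0.0568). Their part in the results was not tested. All 8 satellite glia markers were detected in each library, with a summed level of 820 to 1812 TPM in wild type and 428 to 944 TPM in knockout. In whole-population libraries such as these, fewer cells of a type and less RNA per cell cannot be told apart.

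Of the 9 genes, Pvalb, Calb2 and Calm2 fell in knockout libraries and 6 did not pass the test, with 0 called higher. The test was limma on log2(TPM + 1) across the 13787 rows whose mean reached 1 TPM, with a gene called at a Benjamini-Hochberg adjusted p below 0.05. At an unadjusted p below 0.05, 6 genes were lower and 1 was higher, and over all tested rows 14.1% were lower and 9.77% higher. The members' share called was 33.3%, and 5.03% of all tested rows were called (3.17% lower and 1.86% higher). With median-of-ratios rescaling, rows called higher and lower numbered 375 and 385 in place of 256 and 437. The median log2 difference was -0.50 over the 9 genes and -0.05 over all tested rows. The wild-type and knockout values did not overlap for 6 genes, being lower in knockout for Pvalb, Calb2, Calm2, Ncald and Vsnl1 and higher for Hpca. Groups did not overlap in 28.9% of all tested rows (17.1% lower and 11.8% higher). The members were chosen with earlier results of these data known, so these counts describe them and set them apart from no other group of genes.

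**Figure D1:**
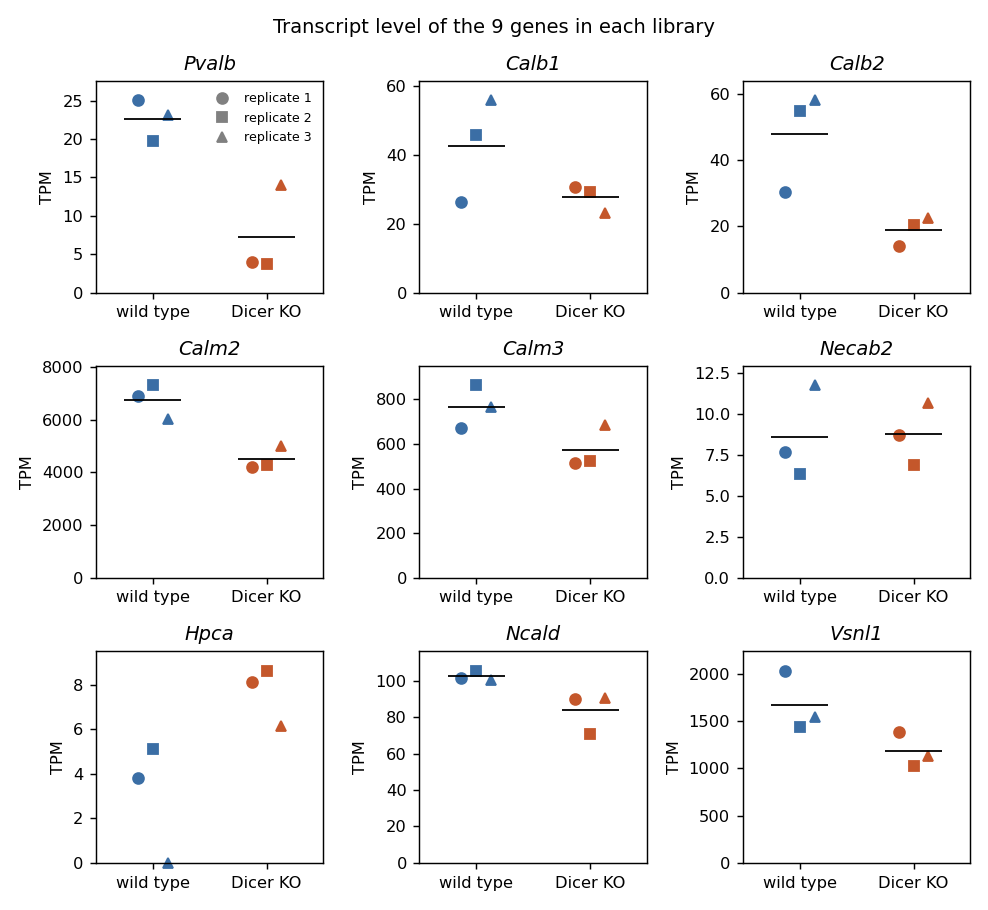
Transcript level in TPM (vertical axes, each starting at 0) of the 9 genes in each library, wild type in blue and Dicer knockout in orange, with marker shape giving the replicate and a line at the group mean (none for Hpca, which is listed at 0 in 1 library). The knockout points lie below all wild-type points for Pvalb, Calb2, Calm2, Ncald and Vsnl1, and above them for Hpca.

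Among the calcium buffers, Pvalb and Calb2 fell and Calb1 did not pass. Pvalb (GRCm38 chromosome 15, 78191114 to 78206400) had levels of 25.1, 19.7 and 23.1 TPM in wild type, which compare with 4.02, 3.69 and 13.98 TPM in knockout. All knockout values were below all wild-type values, and knockout replicate 3 stood well above the other knockout libraries. Mean levels were 22.6 ± 2.71 and 7.23 ± 5.85 TPM (SD, n = 3 per group), so that the knockout mean was 32.0% of the wild-type mean. The log2 difference was -1.73 (SE 0.41, 95% interval -2.65 to -0.82, limma adjusted p = 0.0452). By rank of level within a library, Pvalb stood between 5375 and 6219 among the 31469 rows in wild type and between 7329 and 10830 in knockout. In wild type its mean was below those of Calb1 and Calb2.

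Satellite glia transcripts were also lower in part. Of the 8 markers, Fabp7 and Gja1 were called lower, the summed level overlapped between groups, and no marker was below 0.93 TPM in any library. Glul went the other way, with 149 ± 48.4 TPM in wild type and 226 ± 16.8 TPM in knockout (SD, n = 3), every knockout library above every wild-type library (limma adjusted p = 0.105). With the mean log2(TPM + 1) of the 8 markers added as a satellite glia covariate, the Pvalb difference was -1.15 (adjusted p = 0.225). Most of these markers were lower in knockout (median log2 difference -1.28). The covariate therefore overlaps with genotype, and their effects cannot be told apart. Without knockout replicate 3 the Pvalb difference was -2.28 (adjusted p = 0.00441), and in the 4 Xist-expressing libraries it was -2.26 (adjusted p = 0.0231). Leaving out wild-type replicate 1, 2 or 3 ended the call (adjusted p = 0.0841, 0.0804 and 0.115), as did leaving out knockout replicate 1 or 2 (0.149 and 0.142). The call was also lost with log2(TPM + 0.1), no filter and no intensity trend (adjusted p = 0.0552, 0.0932 and 0.113).

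Calb2, which encodes calretinin (chromosome 8, 110137502 to 110168210), was at 30.5, 54.9 and 58.2 TPM in wild type and at 13.98, 20.3 and 22.5 TPM in knockout. The groups did not overlap, and replicate 1 was the lowest library in both. The means were 47.8 ± 15.1 and 18.9 ± 4.42 TPM (SD, n = 3), with a log2 difference of -1.26 (SE 0.27, 95% interval -1.87 to -0.66, adjusted p = 0.0326). The call was lost without wild-type replicate 2 or 3 (adjusted p = 0.0856 and 0.102) or knockout replicate 1 or 2 (0.114 and 0.0864), in the 4 Xist-expressing libraries (0.109), with no filter (0.0716) and with no intensity trend (0.0976). With the satellite glia covariate the difference was -1.23 (adjusted p = 0.143).

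Calb1, which encodes calbindin (chromosome 4, 15881264 to 15908064), was at 26.4, 45.7 and 55.8 TPM in wild type and at 30.5, 29.3 and 23.2 TPM in knockout. The groups overlapped because wild-type replicate 1 lay among the knockout values. The log2 difference was -0.55 (95% interval -1.13 to 0.03, adjusted p = 0.23), and without wild-type replicate 1 it was -0.85 (adjusted p = 0.0392). It moved the other way without wild-type replicate 3 (-0.33, adjusted p = 0.498) and in the 4 Xist-expressing libraries (-0.21, adjusted p = 0.709). Calb2 and Calb1 stood at nearly the same level in wild type, with a ratio of Calb2 to Calb1 of 1.13 ± 0.081 (SD, n = 3) and a lowest value of 1.04. In knockout the ratio was 0.46, 0.69 and 0.97, below every wild-type ratio. An exact two-sided permutation test gave p = 0.1 for this ratio, the smallest that 3 against 3 libraries allow.

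**Figure D2:**
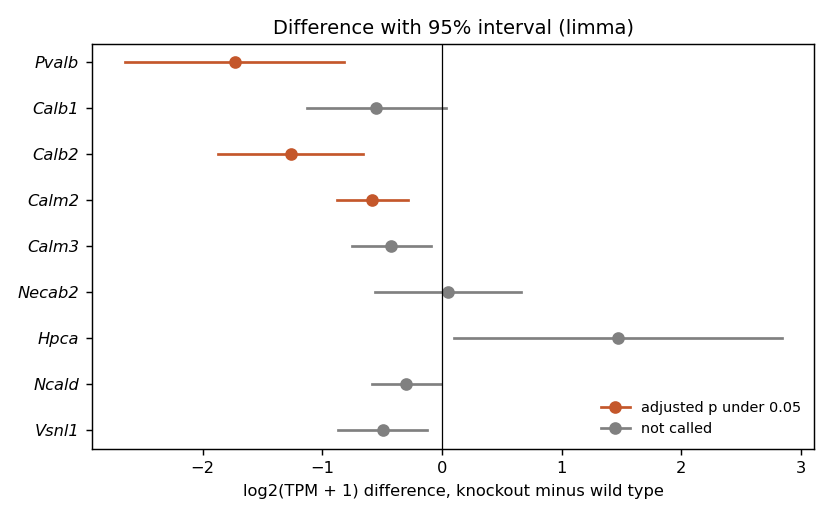
Log2(TPM + 1) difference, knockout minus wild type (horizontal axis), for each of the 9 genes, with points for limma estimates, bars for 95% intervals and orange for genes called at an adjusted p below 0.05. The intervals of Pvalb, Calb2 and Calm2 lie wholly below 0, as do those of the uncalled Calm3, Ncald and Vsnl1 before adjustment for the number of rows. On the same unadjusted basis the interval of the uncalled Hpca lies wholly above 0 (0.10 to 2.84).

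Of the calmodulin members, Calm2 had the higher level and was called, and Calm3 was not. Calm2 (chromosome 17, 87433412 to 87446935) was at 6874, 7293 and 6031 TPM in wild type and at 4216, 4270 and 5005 TPM in knockout. The groups did not overlap, and replicate 3 was nearest to the other group on both sides. The means were 6733 ± 643 and 4497 ± 440 TPM (SD, n = 3), and the log2 difference was -0.58 (SE 0.13, 95% interval -0.88 to -0.29, adjusted p = 0.0395). Calm2 ranked 8 among all rows in each wild-type library and between 10 and 13 in knockout.

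Like those of Pvalb and Calb2 (limma adjusted p = 0.0452 and 0.0326), the Calm2 call (0.0395) was near the threshold. It was lost with median-of-ratios rescaling (-0.51, adjusted p = 0.0975) and with the satellite glia covariate (-0.62, adjusted p = 0.157), in the 4 Xist-expressing libraries (-0.74, adjusted p = 0.079), with no filter and no intensity trend (adjusted p = 0.17 and 0.114), and on leaving out wild-type replicate 1, 2 or 3 (adjusted p = 0.0579, 0.133 and 0.0596) or knockout replicate 1 or 2 (0.139 and 0.138). RSEM assigns reads that fit several transcripts by a statistical model, and Calm2 and Calm3 have related coding sequences, so their values carry that uncertainty.

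Calm3 (chromosome 7, 16915379 to 16924114) was at 673, 863 and 765 TPM in wild type and at 514, 523 and 686 TPM in knockout. Knockout replicate 3 overlapped wild type, and the difference of -0.42 was not called (SE 0.15, 95% interval -0.75 to -0.09, adjusted p = 0.121). The ratio of Calm2 to Calm3 overlapped between groups (8.85 ± 1.22 and 7.89 ± 0.51, SD, n = 3, exact permutation p = 0.4).

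None of Vsnl1, Ncald, Hpca and Necab2 passed the test (limma; unadjusted p below 0.05 for Vsnl1 and Ncald, lower, and Hpca, higher). Vsnl1, which encodes visinin-like protein 1 (chromosome 12, 11325242 to 11436613), was at 2036, 1440 and 1541 TPM in wild type and at 1386, 1024 and 1130 TPM in knockout. The groups were separated by a narrow gap between wild-type replicate 2 and knockout replicate 1, and replicate 1 was the highest library of each group. The difference was -0.50 (SE 0.16, 95% interval -0.87 to -0.13, adjusted p = 0.108), and quantile normalization gave -0.67 (adjusted p = 0.0415). Median-of-ratios rescaling gave -0.43 (adjusted p = 0.18), and without wild-type replicate 1 it was -0.35 (adjusted p = 0.185).

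Ncald, the neurocalcin delta gene (chromosome 15, 37366175 to 37792570), was at 102, 106 and 100.1 TPM in wild type and at 89.9, 70.8 and 90.4 TPM in knockout. All knockout values were lower, with a difference of -0.30 (95% interval -0.59 to -0.01, adjusted p = 0.202), or -0.18 without knockout replicate 2. Necab2 (chromosome 8, 119446719 to 119472640) was at 7.68, 6.31 and 11.7 TPM in wild type and at 8.72, 6.87 and 10.7 TPM in knockout, where the ranges almost coincided (log2 difference 0.05, 95% interval -0.56 to 0.66, adjusted p = 0.935). With the satellite glia covariate the Necab2 difference was 0.53 (adjusted p = 0.31).

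Hpca, the hippocalcin gene (chromosome 4, 129111570 to 129122036), was the only member with higher values in knockout that did not overlap wild type. It was at 3.84 and 5.13 TPM in wild-type replicates 1 and 2 and listed at 0 in wild-type replicate 3, against 8.14, 8.65 and 6.15 TPM in the knockout libraries. The difference of 1.47 was not called (95% interval 0.10 to 2.84, adjusted p = 0.183). It was 0.65 without wild-type replicate 3, 0.79 in the 4 Xist-expressing libraries, 0.38 with the satellite glia covariate and 2.59 with log2(TPM + 0.1), and was called in none of these. RSEM can list 0 where an estimate fails, and 6 rows were listed at 0 in wild-type replicate 3 alone while at 3 TPM or more in the 5 other libraries. The same count was 34 for wild-type replicate 2 and 1 to 4 for each remaining library. Whether the Hpca value is a failed estimate was not tested.

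The 9 levels spanned a wide range. In wild type the order by mean was Calm2, Vsnl1, Calm3, Ncald, Calb2, Calb1, Pvalb, Necab2 and Hpca. Calb2 and Calb1 were the only neighbours in that order whose libraries overlapped. In knockout, Calm2, Vsnl1, Calm3 and Ncald kept their order, Calb1 stood above Calb2, and Pvalb came last by its mean. The ranges of Necab2, Hpca and Pvalb overlapped there as neighbours, so their order in knockout was not resolved. Summed over the 9 genes, the level was 9399 ± 705 TPM in wild type and 6405 ± 528 TPM in knockout (SD, n = 3), most of it from Calm2.

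By mean absolute difference of centred log2(TPM + 1) values over the 6 libraries, the patterns most like that of Pvalb were those of Igfbp4, Rgma, Fabp7, Grb10 and Nrep, out of 9833 named rows whose mean reached 5 TPM. Their distances were 0.28 to 0.29 log2 units, against a median of 0.91 over those rows. Igfbp4, an insulin-like growth factor binding protein gene, was at 11.8, 9.02 and 18.5 TPM in wild type and at 2.66, 2.32 and 7.36 TPM in knockout, with replicate 3 the highest knockout library as for Pvalb. Fabp7, a lipid-binding protein gene of satellite glia, was at 768, 433 and 788 TPM and at 185, 104 and 354 TPM. Rgma, which encodes a repulsive guidance molecule, and Grb10, which encodes an adaptor of receptor tyrosine kinases, also had their highest knockout value in replicate 3.

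Of the genes around these members, 82 were listed in 6 groups by role, 77 were in the table and 62 reached the filter. In all 4 rose and 4 fell (12.9% called, against 5.03% of all tested rows, with 1.86% higher and 3.17% lower), with a median log2 difference of 0.05. With no intensity trend 0 rose and 2 fell. Relatives of Necab2 and the calmodulins included 2 that rose among 11 tested. Necab1 rose from 137, 90.8 and 140 TPM to 367, 300 and 245 TPM (log2 difference 1.31, adjusted p = 0.01), and Necab3 from 119, 141 and 149 TPM to 233, 261 and 209 TPM (0.78, adjusted p = 0.0143). In both, every knockout library lay above every wild-type library, while their relative Necab2 showed no such separation. Cetn3, a centrin, was at 145 ± 19.3 and 121 ± 16.9 TPM (SD, n = 3, adjusted p = 0.311).

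Among 11 tested neuronal calcium sensors, 3 fell, 1 rose and 7 did not pass. Kcnip1 and Kcnip2 encode EF-hand subunits of A-type potassium channels. Kcnip1 fell from 71.8 ± 7.70 to 14.6 ± 5.14 TPM (SD, n = 3, log2 difference -2.28, adjusted p = 0.00311). Kcnip2 was at 15.3, 39.5 and 21.8 TPM in wild type, at 3.50 and 0.78 TPM in knockout replicates 1 and 3, and listed at 0 in knockout replicate 2 (adjusted p = 0.00945). Kcnip3, also known as DREAM, rose from 205 ± 34.8 to 400 ± 54.6 TPM (0.97, adjusted p = 0.0127), and Kcnip4 was at 100.3 ± 21.9 and 99.9 ± 10.3 TPM (adjusted p = 0.972). Cabp1, a calmodulin-like regulator of calcium channels, fell from 182 ± 55.2 to 89.9 ± 11.7 TPM (-0.97, adjusted p = 0.0301). Ncs1, neuronal calcium sensor 1, was at 68.6 ± 5.79 and 55.7 ± 5.10 TPM (adjusted p = 0.201).

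Targets and partners of calmodulin mostly did not pass. None of 14 kinases and kinase regulators was called by limma (an unadjusted p below 0.05 was reached by 5 that were higher and 1 lower, median 0.29), with Camk2g at 248 ± 14.0 and 245 ± 8.74 TPM and the kinase inhibitor gene Camk2n2 at 145 ± 22.1 and 188 ± 15.9 TPM (SD, n = 3). None of 5 calmodulin-binding proteins with IQ motifs was called (an unadjusted p below 0.05 was reached by 1, lower, median 0.02), with the myosin gene Myo5a at 364 ± 2.36 and 344 ± 28.4 TPM and Pcp4l1 at 197 ± 81.2 and 282 ± 53.6 TPM. Among 11 calcineurin genes, Ppp3r1, which encodes the EF-hand regulatory subunit, rose from 227 ± 33.4 to 337 ± 16.3 TPM (0.58, adjusted p = 0.0391). The other 10 did not pass, including the regulator Rcan2 (382 ± 46.1 and 380 ± 44.9 TPM) and Chp1 (315 ± 23.6 and 350.2 ± 13.8 TPM).

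Of 10 tested genes that remove calcium from the cytosol, Atp2b3 was the only one called. It encodes a plasma membrane calcium pump that calmodulin activates, and fell from 97.6, 133 and 121 TPM to 57.8, 54.3 and 64.6 TPM (log2 difference -0.97, SE 0.14, adjusted p = 0.00945). Its relatives Atp2b1 and Atp2b2 were not called (0.08 and 0.09, adjusted p = 0.755 and 0.735). Slc24a2, a potassium-dependent sodium-calcium exchanger gene, was at 563 ± 38.1 and 492 ± 71.6 TPM, and Smdt1, a regulator of the mitochondrial calcium uniporter, at 414 ± 23.5 and 370 ± 37.9 TPM (SD, n = 3).

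**Figure D3:**
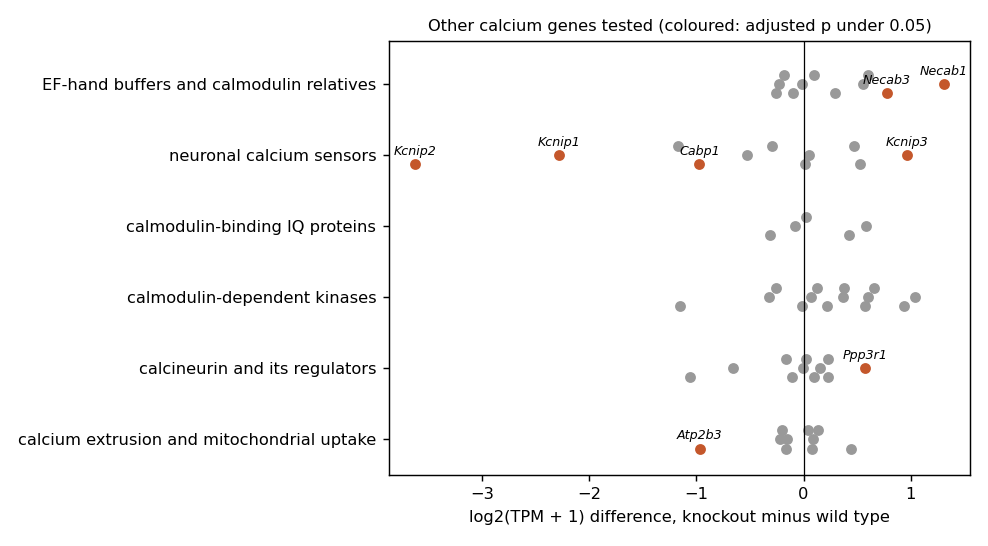
Log2(TPM + 1) difference, knockout minus wild type (horizontal axis), for the 62 tested calcium genes outside the 9, by role (rows), each point 1 gene and orange points those called at an adjusted p below 0.05. The 8 called genes run from Kcnip2 at -3.63 to Necab1 at 1.31.

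**Figure D4:**
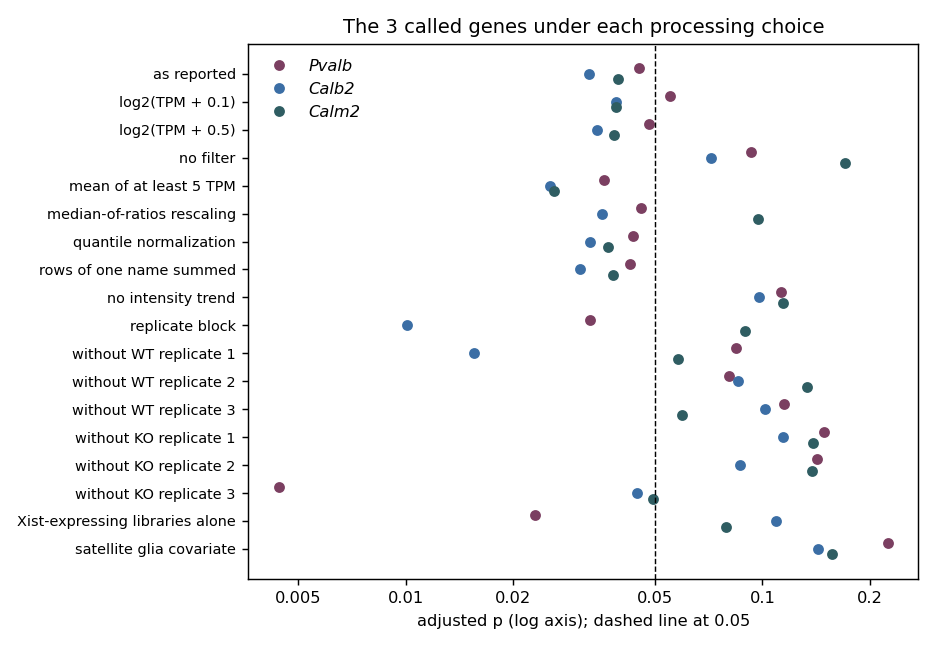
Adjusted p of Pvalb, Calb2 and Calm2 (points, log axis, dashed line at 0.05) as reported and under each of 17 other processing choices (rows). The points of all 3 genes lie to the left of the line as reported, and each gene crosses it when some libraries are left out.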

How the data were processed

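Per the labels' protocols, RNA was extracted with the PicoPure kit, amplified as cDNA with an Ovation kit, sheared and ligated to adapters. Amplification adds noise, most at low levels. RSEM 1.2.7, Bowtie2, cutadapt and the mm10 build are named in the submitters' processing notes. No annotation was named in the sources at hand. In the table that the authors deposited, values are TPM, with 1 column per library summing to 1000000, so that a rise of abundant transcripts lowers others and depth is lost.

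The comparison of 3 knockout with 3 wild-type libraries used limma 3.58.1 in R 4.3.3 across the 13787 rows whose mean reached 1 TPM, on log2(TPM + 1) with an intensity trend and genotype as the only term, two-sided, with Benjamini-Hochberg adjustment and a threshold of 0.05. Differences are knockout minus wild type on that scale, which understates changes of low genes. The step was tested on simulated data, where it recovered 11.5% of 1.5-fold, 50.4% of 2-fold and 85.8% of 4-fold changes. A gene that did not pass may thus still differ by 1.5-fold or 2-fold. Ratios and sums were compared by exact permutation. Per list, genes named were up to 5 called (largest difference) and 2 uncalled (highest mean), of which 1 is not reported here. Atp2b1 and Atp2b2 were named outside that rule, after their values were seen. Pcp4, Slc8b1, Mcub, Micu2 and Micu3 and the markers Whrn and Maf were not found by name. The members and lists were chosen with earlier results of these data known. Gene coordinates and 3' UTRs (longest per gene) came from GENCODE M21 on GRCm38 (the mm10 assembly) and were searched with Python 3.11.15. Promoter sequences of Calm3, Hpca, Necab2, Pvalb and Vsnl1 (5 of 9 members) were matched by symbol in RefSeq. Alternatives covered the pseudocount, filter, scaling, rows sharing a name, trend, replicate block and each library left out. The 4 Xist-expressing libraries alone and the satellite glia covariate were added after seeing the data.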

Additional observations from a re-analysis of the deposited data

How the results depend on the processing

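All 9 genes except Necab2 kept their direction under all 17 alternatives. Necab2 was at -0.0024, -0.13 and -0.09 without wild-type replicate 1, wild-type replicate 2 and knockout replicate 3 (range -0.13 to 0.27 with single libraries left out) and at 0.53 with the satellite glia covariate, and the cause was not tested. Of 9 genes, 3 were called as reported. The number was 0 with no filter (6 lower and 0 higher with an unadjusted p below 0.05), 0 with no intensity trend (4 and 0), 0 with the satellite glia covariate (3 and 0), 1 in the 4 Xist-expressing libraries and 0 to 3 with single libraries left out. Over all rows, 693 were called, against 378 with no filter, where 19535 rows were tested, 225 with no intensity trend, 204 in the Xist-expressing libraries, 142 with the satellite glia covariate and 164 to 835 with single libraries left out. Of the 62 other calcium genes, 8 were called, against 2, 4 and 4 with no intensity trend, in the Xist-expressing libraries and with the covariate, and 4 to 9 with single libraries left out.

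Whether same-numbered libraries are paired could not be settled. Their correlations of deviations from group means were 0.0492, 0.0659 and 0.0382, against -0.0976 to 0.0705 for libraries with different numbers. Replicate 3 of each group also shared its Xist and Ddx3y pattern. With the replicate block, 529 rows, 2 of the 9 genes and 7 other calcium genes were called. Calm2 was the gene not called (adjusted p = 0.0893). Without recorded depth, no interval for counting error could be given. Low genes such as Hpca and Necab2, and Pvalb in knockout (4.02, 3.69 and 13.98 TPM), are the least certain.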
